A study of Danio rerio with 5 samples.

Results

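Eph receptors and ephrins were followed in zebrafish (Danio rerio) vagus motor neurons, as the genes whose symbol, in lower case, starts with epha, ephb, efna or efnb and a digit. The rule found 29 genes among the 31953 gene rows of the count files: 8 EphA receptors, 8 EphB receptors, 9 ephrin-A ligands and 4 ephrin-B ligands. It used symbols alone and no measured value. A further identifier with such a symbol, efnb3a, has no row in the files and was not analysed here. Many symbols are in capitals without the a or b of zebrafish duplicates, so genes that share a symbol are told apart by Ensembl identifier.

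The posterior group held 3 libraries (B, G and R) of neurons from the posterior end of the vagus motor population, and the anterior group held 2 libraries (B and G) from its anterior end. The design text speaks of 3 replicates per population, and a further anterior library was not analysed here. All came from embryos at 28 to 30 hours after fertilisation that carried the Tg(isl1:Kaede) transgene, in which Kaede, a protein that light turns from green to red, marks isl1-expressing motor neurons. Converted cells were picked by hand, 100 to a library. The isl1 promoter sets which cells are marked. The labels do not say whether libraries came from separate animals or how many embryos gave cells, so p-values measure only the spread between these libraries, which may be technical.

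Eph receptors are the largest family of receptor tyrosine kinases, and their ligands, the ephrins, sit in the membrane of neighbouring cells. Ephrin-A proteins hang on a lipid anchor and mainly bind EphA receptors, while ephrin-B proteins span the membrane and mainly bind EphB receptors, with EphA4 binding both kinds. Contact signals into both cells and often makes a growth cone turn away or cells of the hindbrain sort apart. Vagus motor neurons project in order of position, anterior neurons to more anterior pharyngeal arches. The comparison asked which Eph and ephrin genes differ between the ends of this population.

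Reads assigned to genes numbered 14932562 to 19197178 in posterior and 17433311 to 20088585 in anterior libraries. Posterior B detected the fewest genes over 3 counts, 8945, against 10359 to 11931 in the other 4 libraries. Levels are given as CPM, counts scaled by effective library size. CHAT, which makes acetylcholine, had 0 to 11.1 CPM in posterior and 5.43 to 36.1 CPM in anterior libraries. Of the 2 genes named SLC5A7, the choline transporter, ENSDARG00000102336 was at 0 throughout and ENSDARG00000074860 had 1.33 to 60.5 CPM in posterior and 0 to 24.0 CPM in anterior libraries. Summed over marker lists, cranial motor neuron genes had 7722 to 8122 CPM in posterior and 7311 to 8093 CPM in anterior libraries, and progenitor and cycling genes 5368 to 7828 CPM and 5544 to 8971 CPM. Differentiated neuron genes were lower in every posterior library (8314 to 10134 CPM, 20 genes) than in both anterior libraries (12614 to 15034 CPM), as were glial genes (1542 to 1663 CPM and 2155 to 2373 CPM, 14 genes, SOX10 and mbpa at 0 throughout). Neural crest and sensory ganglion genes summed higher in posterior (130 to 286 CPM, 14 genes, FOXD3 and snai1b at 0 throughout) than in anterior libraries (43.7 to 77.7 CPM). A large part of the posterior sums was DRGX, with 61.4 to 150 CPM in posterior and at most 0.0990 CPM in anterior libraries. Of the 6 tested genes of that list, DRGX was the only 1 whose groups did not overlap. Without DRGX, the sums of posterior G and R would lie between those of the anterior libraries, so the groups would overlap. Interneuron genes summed to 55.6 to 84.7 CPM in posterior and 83.1 to 273 CPM in anterior libraries, endothelial genes to 0 to 22.5 CPM and 0 to 107 CPM (cdh5 and FLI1 at 0 throughout), epidermal genes to 0.454 to 26.0 CPM and 0 to 60.8 CPM, and muscle and mesoderm genes to 1.75 to 48.0 CPM and 0.990 to 149 CPM. Blood and myeloid genes summed to at most 0.0528 CPM in posterior libraries and were at 0 in anterior libraries. The part of these lists in the Eph and ephrin values was not tested.

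Of the 29 genes, 27 had over 3 counts in at least 1 library, and 11 had over 3 counts in all 5. For all gene rows these numbers were 16088 and 6039 of 31953. The receptor ephb6, which lacks kinase activity in mammals, and the ligand efna4 had 0 counts in every library. A count of 3, the floor used here, equals 0.158 to 0.195 CPM in posterior and 0.148 to 0.177 CPM in anterior libraries. This floor covers counting error only. Posterior libraries detected 16 (B), 20 (G) and 23 (R) of the genes over 3 counts, and anterior libraries 20 (B) and 24 (G). Gene lengths were not used here, so levels are compared between libraries for the same gene and never between genes.

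The test ran on all 11827 genes that passed the filter on low counts, 22 of them Eph or ephrin genes. The 7 others (epha2b, EPHA3, EPHA6, ephb6, EFNA5, efna4 and EFNA1 ENSDARG00000030326) did not reach the filter's minimum in enough libraries, and EFNA5, that EFNA1 and epha2b had most of their counts in 1 library. With the edgeR quasi-likelihood test, 0 of the 22 had an adjusted p under 0.05, as did 0% of all tested genes, and adjusted p ran from 0.726 to 0.992. A difference between the ends larger than the spread of these libraries was thus not shown for any Eph or ephrin gene, which does not show that their levels are alike. At an unadjusted p under 0.05 edgeR gave 1 gene, epha7, lower in posterior. Of all tested genes 6.49% had such a p, 2.28% higher and 4.21% lower in posterior. DESeq2 and limma-voom also gave 0 adjusted calls among the 22, though DESeq2 gave no adjusted p for some of them. The genes at an unadjusted p under 0.05 differed between methods. DESeq2 gave 2, epha7 and ephb4b, and limma-voom 3, EFNB1, epha4b and EPHA4 (ENSDARG00000054454), with epha7 at a limma-voom p of 0.272. Log2 fold changes, posterior minus anterior, were above 0 for 10 and below 0 for 12 of the 22 (47.9% of all tested genes were above 0). Their median was -0.31, against -0.05 over all tested genes. Without anterior G the filter passed 24 Eph and ephrin genes, with epha2b (6.54) and EPHA3 (7.07) added. The median log2 fold change over these 24 was 0.74, where that of all genes then tested was 0.45. The median of the same 22 genes in that fit was not computed. In 5 of the 22 every posterior library lay below both anterior libraries (12.3% of all tested genes), and in 0 every posterior library lay above them (9.57%). Among the genes not tested, epha2b and EPHA3 had every posterior library above both anterior libraries, with most values near the floor. Those 5 were EPHB3 (ENSDARG00000031548), EFNA2 (ENSDARG00000031372), EFNB1 and both tested genes named EPHA4.

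Of 5 tested EphA receptors 4 had a log2 fold change below 0, with a median of -1.92. Without anterior B, and without anterior G, the filter also passed epha2b and EPHA3, both above 0 in those fits. The medians over these 7 were -0.48 without anterior B and -0.33 without anterior G. They are thus not over the same genes as the -1.92. EPHA4 is the receptor best known for steering motor axons in the mouse limb and for segment borders in the fish hindbrain. EPHA4 (ENSDARG00000054454) had 0, 10.5 and 0 CPM in posterior libraries B, G and R, against 24.9 and 26.5 CPM in anterior libraries B and G. All posterior libraries were below both anterior ones, and the anterior libraries were close to each other. Its log2 fold change was -2.96 with an SE of 1.49 (edgeR p 0.0651, adjusted p 0.726), and its size rests on posterior G, the one posterior library with reads. In bulk samples of this kind, fewer cells with a transcript and less of it per cell cannot be told apart.

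The related epha4b had 0, 0 and 36.9 CPM in posterior libraries B, G and R and 17.1 and 83.4 CPM in anterior libraries B and G. Posterior R lay between the anterior libraries, so the groups overlapped. The log2 fold change was -1.92 with an SE of 1.23 (edgeR adjusted p 0.728), and -0.33 without anterior G. Without posterior R both remaining posterior libraries had 0 counts. The other gene named EPHA4 (ENSDARG00000010767) was near the floor everywhere, at 0.779, 0.380 and 0.528 CPM in posterior libraries B, G and R and 1.36 and 0.841 CPM in anterior libraries B and G. Summed over the 3 genes, posterior B, G and R had 0.779, 10.8 and 37.4 CPM, and anterior B and G 43.4 and 111 CPM. Posterior B, with only 12 counts over the 3 genes, had next to no EPHA4 family reads.

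Another receptor, epha7, which takes part in repulsive sorting and topographic maps, had the smallest p among the 22 tested genes. It had 0.908, 0.951 and 3.75 CPM in posterior libraries B, G and R, against 58.6 and 2.77 CPM in anterior libraries B and G. Anterior B alone was high, and anterior G lay inside the posterior range. The log2 fold change of -3.86 with an SE of 1.70 (edgeR p 0.0401, adjusted p 0.726) came to -0.48 without anterior B.

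The only tested EphA receptor with a log2 fold change above 0 was epha2a, a member known mostly from epithelia. It had 15.1, 37.5 and 49.9 CPM in posterior libraries B, G and R and 19.8 and 32.2 CPM in anterior libraries B and G, with overlapping groups and a log2 fold change of 0.40 with an SE of 0.93 (edgeR adjusted p 0.956). Its duplicate epha2b had 15.9 CPM in posterior R and at most 0.389 CPM in the other 4 libraries. EPHA3, known for its part in retinal maps, had 0.454 to 2.03 CPM in posterior and 0 to 0.445 CPM in anterior libraries. EPHA6 stayed at or near the floor, with at most 4 counts in any library.

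**Figure D1:**
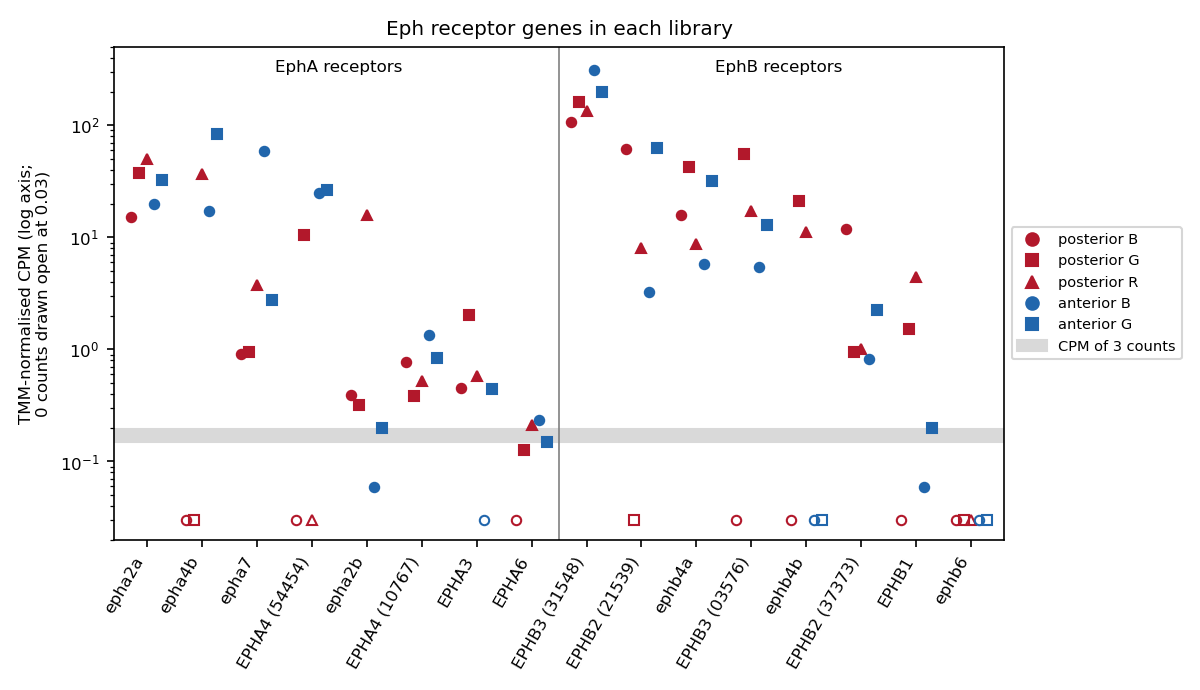
CPM (log axis) of the 16 Eph receptor genes in each library, with posterior libraries in red left of anterior libraries in blue, marker shape giving the library letter, open markers at the bottom standing for 0 counts and the grey band for 3 counts. Genes that share a symbol carry the last digits of their identifier. EPHB3 at the left of the EphB panel is above 100 CPM in all 5 libraries, while epha4b, EPHA4 and EPHB2 range between 0 counts and over 10 CPM within a group.

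Among EphB receptors, EPHB3 (ENSDARG00000031548) was above 100 CPM in all 5 libraries. EphB3 acts with EphB2 in guiding commissural axons in mice. It had 107, 163 and 134 CPM in posterior libraries B, G and R, against 314 and 198 CPM in anterior libraries B and G. The means were 135 ± 28.0 CPM (SD, n = 3) in posterior and 256 ± 81.8 CPM (SD, n = 2) in anterior libraries. All posterior libraries were below both anterior libraries, and the log2 fold change was -0.92 with an SE of 0.48 (edgeR p 0.0781, adjusted p 0.726). It stayed below 0 with each library left out, from -1.23 to -0.56. The second EPHB3 (ENSDARG00000103576) had 0, 55.1 and 17.1 CPM in posterior libraries B, G and R and 5.43 and 13.0 CPM in anterior libraries B and G, and these groups overlapped. Summed over both EPHB3 genes, posterior B, G and R had 107, 218 and 151 CPM, and anterior B and G 319 and 211 CPM. Posterior G then lay above anterior G, so the summed groups overlapped.

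EPHB2 (ENSDARG00000021539) varied widely within both groups. It had 61.4, 0 and 8.07 CPM in posterior libraries B, G and R and 3.24 and 62.8 CPM in anterior libraries B and G. High and low libraries occurred at both ends, and the log2 fold change of -0.65 with an SE of 1.27 (edgeR adjusted p 0.947) was 2.76 without anterior G. The other EPHB2 (ENSDARG00000037373) had 11.9, 0.951 and 1.00 CPM in posterior libraries B, G and R and 0.826 and 2.23 CPM in anterior libraries B and G.

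The EphB4 receptors, known in zebrafish from arteries and veins, were both present. For ephb4a the values were 16.0, 42.8 and 8.81 CPM in posterior libraries B, G and R and 5.78 and 32.0 CPM in anterior libraries B and G, with overlapping groups. For ephb4b they were 0, 21.0 and 11.2 CPM in posterior libraries B, G and R, and 0 counts in both anterior libraries. Its posterior mean was 65.9-fold the anterior floor of 3 counts a library (edgeR adjusted p 0.726), though posterior B had 0 counts too. As that floor covers counting error only, this ratio is not a lower limit on the difference between the ends. The endothelial markers cdh5 and FLI1 had 0 counts in all libraries, while the 3 other genes of that list had counts. TIE1 had 16.5 CPM in posterior G, the library highest in ephb4b, EGFL7 had 5.96 CPM in posterior G and 9.73 CPM in anterior B, and kdrl had 0.0634 CPM in posterior G and 97.0 CPM in anterior B. Their part in the ephb4a and ephb4b values was not tested. EPHB1 had 0, 1.52 and 4.43 CPM in posterior libraries B, G and R and 0.0590 and 0.198 CPM in anterior libraries B and G. Of the 7 tested EphB receptors 5 had a log2 fold change above 0, with a median of 1.33. Of those 5, ephb4b and EPHB1 reached the filter's minimum only in posterior G and R, so the filter fixed their direction. The median without them was not computed. Setting ephb4b to the 65.9-fold ratio could not change the median of 1.33, as ephb4b lies above it either way. The median was 0.16 among the 5 genes with a mean of at least 5 CPM, which still held ephb4b. It ran from -0.07 without posterior G, where 5 genes were tested, to 2.38 without anterior G, where 7 were.

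Of the 6 tested ephrin-A ligands, 3 had a log2 fold change above and 3 below 0, with a median of 0.013. EFNA2 proteins form a graded signal for retinal axons in the optic tectum. EFNA2 (ENSDARG00000031372) had 48.7, 39.7 and 64.9 CPM in posterior libraries B, G and R, against 100 and 111 CPM in anterior libraries B and G. The means were 51.1 ± 12.8 CPM (SD, n = 3) in posterior and 106 ± 7.88 CPM (SD, n = 2) in anterior libraries, with no overlap. The log2 fold change was -1.03 with an SE of 0.63 (edgeR p 0.125, adjusted p 0.728) and lay between -1.24 and -0.88 with each library left out. The other EFNA2 (ENSDARG00000079740) had 69.0, 26.5 and 15.7 CPM in posterior libraries B, G and R and 22.4 and 39.8 CPM in anterior libraries B and G, with a log2 fold change of 0.19 with an SE of 0.93 (edgeR adjusted p 0.986). Its sign turned without posterior B (-0.58).

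EFNA3, another anchored ligand of EphA receptors, had over 3 counts in every library but no steady difference. It had 146, 93.7 and 72.5 CPM in posterior libraries B, G and R and 51.1 and 175 CPM in anterior libraries B and G. The anterior libraries enclosed all posterior ones, and the log2 fold change was -0.16 with an SE of 0.65 (edgeR adjusted p 0.980), with the sign turned without anterior G (1.00). The duplicate efna3a had counts in posterior R (1.95 CPM) and anterior G (9.35 CPM) alone.

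EFNA1, a ligand of EphA2 in other vertebrates, was read from a different copy in 1 library. The gene ENSDARG00000018787 had 61.5, 28.3 and 67.3 CPM in posterior libraries B, G and R, and 59.2 CPM in anterior B but 0.0990 CPM (2 counts) in anterior G. The gene ENSDARG00000030326 had 17.8 CPM (360 counts) in anterior G and at most 2 counts in each of the other 4 libraries. No library had both over 3 counts. For ENSDARG00000018787 the log2 fold change was 0.93 with an SE of 1.04 (edgeR adjusted p 0.876), -0.17 without anterior G and 8.96 without anterior B.

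The EFNA5 ligands, which repel retinal and motor axons in other vertebrates, split in a like way. EFNA5 (ENSDARG00000089790) had 25.2 CPM (509 counts) in anterior G and at most 2 counts elsewhere. Its duplicate efna5b had 15.8, 5.51 and 25.8 CPM in posterior libraries B, G and R and 15.2 and 1.48 CPM in anterior libraries B and G, and was thus lowest in anterior G.

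**Figure D2:**
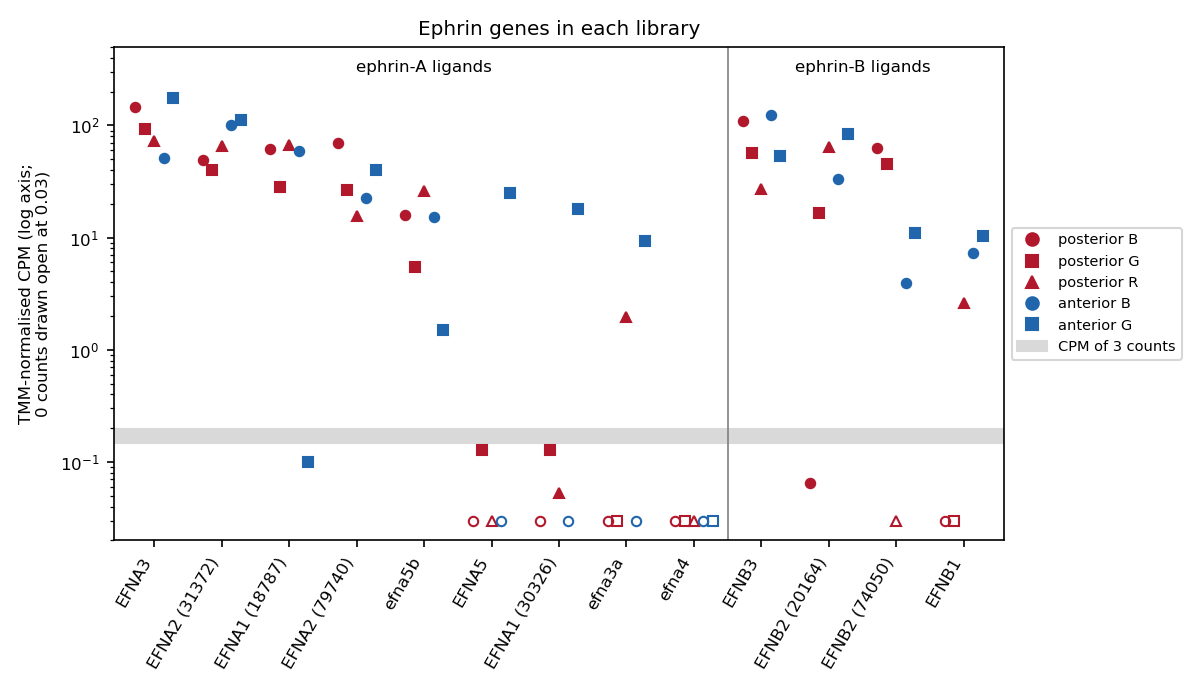
CPM (log axis) of the 13 ephrin genes in each library, drawn as for the receptors, with posterior libraries in red left of anterior libraries in blue, open markers for 0 counts and a grey band for 3 counts. Anterior G is the one library high in EFNA5 and in EFNA1 (ENSDARG00000030326) and the one near the floor in EFNA1 (ENSDARG00000018787).

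Ephrin-B ligands had a median log2 fold change of -0.76 over 4 tested genes, 3 of them below 0. EFNB3, which keeps axons from crossing the midline in the mouse spinal cord, had 110, 56.5 and 27.3 CPM in posterior libraries B, G and R and 123 and 52.9 CPM in anterior libraries B and G. Both B libraries were at the top, the groups overlapped, and the log2 fold change was -0.45 with an SE of 0.74 (edgeR adjusted p 0.934), with the sign turned without anterior B (0.25).

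Ephrin-B2 helps to keep hindbrain segments apart in zebrafish, opposite cells with EphA4. EFNB2 (ENSDARG00000020164) had 0.0649, 16.5 and 63.7 CPM in posterior libraries B, G and R and 33.2 and 84.2 CPM in anterior libraries B and G, with a log2 fold change of -1.07 with an SE of 0.99 (edgeR adjusted p 0.839). The other EFNB2 (ENSDARG00000074050) ran the other way among posterior libraries, at 63.3, 45.6 and 0 CPM in B, G and R, and had 3.95 and 10.9 CPM in anterior libraries B and G. Reads of the first identifier made up 0.102%, 26.5% and 100% of the reads of both in posterior libraries B, G and R, against 89.4% and 88.6% in anterior libraries B and G. The sums of both were 63.3, 62.1 and 63.7 CPM in posterior libraries B, G and R, and 37.2 and 95.1 CPM in anterior libraries B and G. The posterior sums were thus close to each other, while the anterior sums were not. Gene lengths were not used, and a link between the levels of both genes was not tested. EFNB1 had 0, 0 and 2.59 CPM in posterior libraries B, G and R and 7.26 and 10.3 CPM in anterior libraries B and G, with no overlap (edgeR adjusted p 0.726).

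**Figure D3:**
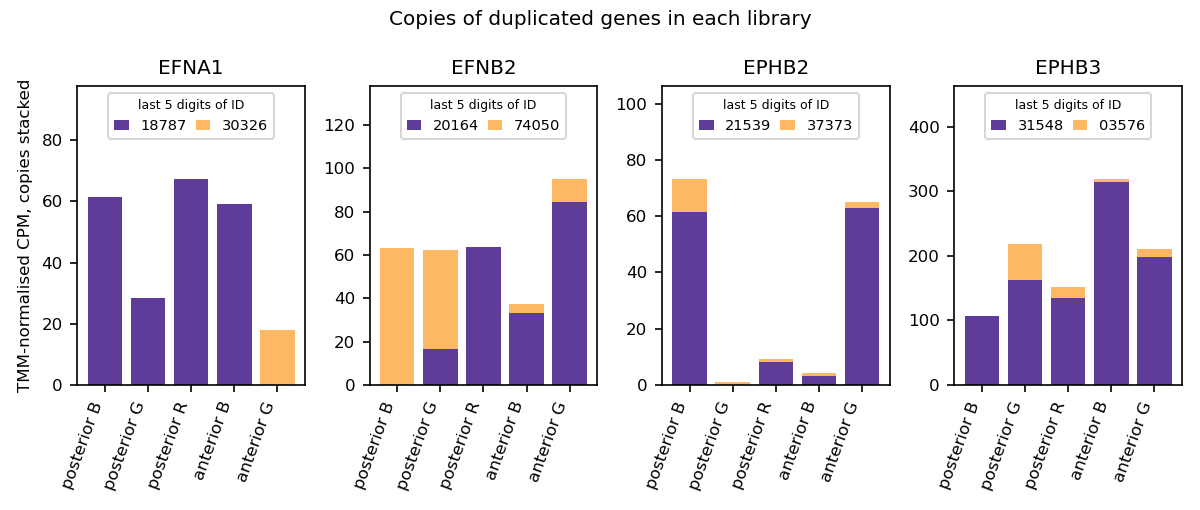
Stacked CPM of both genes that share the symbol EFNA1, EFNB2, EPHB2 or EPHB3, in posterior libraries B, G and R and then anterior B and G. The colour filling the bar changes between libraries for EFNA1 (anterior G) and EFNB2 (posterior B against posterior R), and 1 colour fills most of every EPHB3 bar.

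Gaps of this kind also occurred in other genes of like abundance. With a mean of 1 to 10 CPM, 7 of 8 Eph and ephrin genes (87.5%) were at or under 3 counts in at least 1 library, against 88.5% of all 4888 genes in that range. At 10 to 30 CPM, 5 of 8 Eph and ephrin genes (62.5%) were, against 67.1% of 3038 genes. At 30 to 100 CPM it was 2 of 6 (33.3%), against 23.6% of 2912 genes, and at 100 to 300 CPM 0 of 2, against 1.37% of 1531 genes. For the 16 Eph and ephrin genes with a mean of at least 10 CPM, the median absolute difference in log2(CPM + 1) was 1.08 to 1.56 for the 6 pairs of libraries from different ends and 1.18 to 1.49 for the 4 pairs from the same end. The range for libraries of the same end lay inside that for libraries of different ends. Over all 7481 genes with a mean of 10 to 300 CPM these ranges were 0.81 to 1.43 and 0.76 to 1.18.

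**Figure D4:**
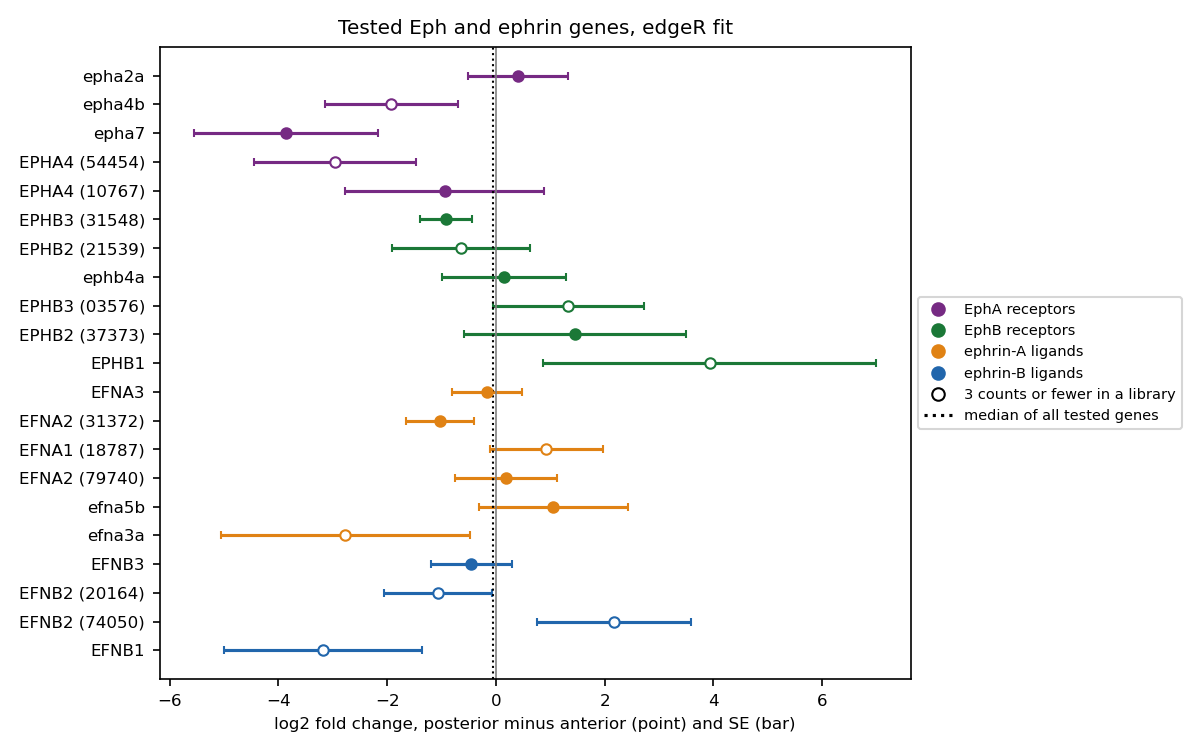
Log2 fold change, posterior minus anterior (points), with its SE (bars) for 21 of the 22 tested genes in the edgeR fit, coloured by class, open where a library had 3 counts or fewer; the dotted line is the median of all tested genes (-0.05). The gene ephb4b is left out because both anterior libraries had 0 counts. The bars of EPHB3 (ENSDARG00000031548) and EFNA2 (ENSDARG00000031372), both with over 3 counts in all libraries, are the narrowest that lie wholly below 0.

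Sums over the genes of a class are carried by the genes with most reads and were given no test. EphA receptors summed to 17.6, 51.8 and 108 CPM in posterior libraries B, G and R, against 122 and 146 CPM in anterior libraries B and G. The means were 59.1 ± 45.6 CPM in posterior (SD, n = 3) and 134 ± 17.3 CPM in anterior libraries (SD, n = 2), a posterior to anterior ratio of 0.440, which was 0.265 without posterior R and 0.606 without posterior B. Without epha2a, the groups still did not overlap, at 2.53, 14.3 and 57.9 CPM in posterior and 102 and 114 CPM in anterior libraries. As epha2a was the only tested EphA receptor with a log2 fold change above 0, leaving it out could hardly bring overlap. Much of each anterior sum came from a different gene, epha7 in anterior B (58.6 CPM) and epha4b in anterior G (83.4 CPM). In posterior R these genes had 3.75 CPM (epha7) and 36.9 CPM (epha4b). Without epha7, the sum of anterior B would lie below that of posterior R. Without epha4b, the sum of anterior G would lie below that of posterior R. The groups would overlap in both cases, so their separation depends on each of these genes. The summed differentiated neuron and glial lists were lower in posterior libraries too, and their part in the lower EphA sums was not tested.

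EphB receptors summed to 196, 285 and 185 CPM in posterior libraries B, G and R, against 329 and 308 CPM in anterior libraries B and G, a ratio of 0.696. This rested on EPHB3 (ENSDARG00000031548): the 7 other genes summed to 89.3, 121 and 50.6 CPM in posterior and 15.3 and 110 CPM in anterior libraries, which overlapped. Ephrin-A ligands summed to 341, 194 and 248 CPM in posterior libraries B, G and R and 248 and 380 CPM in anterior libraries B and G, and ephrin-B ligands to 174, 119 and 93.6 CPM in posterior libraries B, G and R and 167 and 158 CPM in anterior libraries B and G. Both ligand classes overlapped between the groups. Without EFNA3 (ENSDARG00000098295), ephrin-A ligands no longer overlapped, narrowly. They then had 195, 100 and 176 CPM in posterior libraries B, G and R and 197 and 205 CPM in anterior libraries B and G. Ephrin-B ligands without EFNB3 still overlapped. All 29 genes together had 671 ± 50.6 CPM (SD, n = 3) in posterior and 930 ± 89.9 CPM (SD, n = 2) in anterior libraries, without overlap, but overlapped once EPHB3 (ENSDARG00000031548) was left out.

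**Figure D5:**
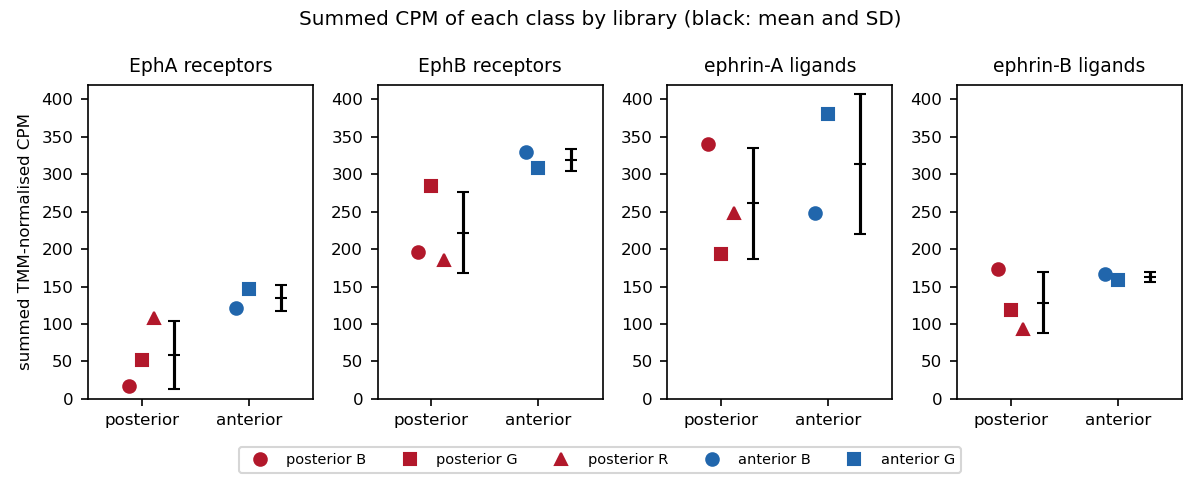
Summed CPM of all genes of each class in each library, posterior (red) left of anterior (blue), with marker shape for the library letter and black bars for the mean and SD of each group. Posterior points lie below both anterior points for EphA receptors (17.6 to 108 CPM and 122 to 146 CPM) and EphB receptors (185 to 285 CPM and 308 to 329 CPM), and the groups overlap for both ligand classes.

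Proteins that pass on Eph and ephrin signals were read from a list of effectors, such as small GTPases and their exchange factors, adaptors and Src family kinases, which was chosen with earlier results of these data known. Of 65 tested genes 0 had an adjusted p under 0.05, and 3 had an unadjusted edgeR p under 0.05, all lower in posterior, the direction in which 4.21% of all tested genes had such a p. Values are given here for 2 of these 3. The log2 fold change was above 0 for 33 of the 65, with a median of 0.014. In 6 genes every posterior library was above, and in 8 below, both anterior libraries, shares near those of all tested genes. PDZRN3 (ENSDARG00000073869), a ubiquitin ligase with PDZ domains, had 0, 46.7 and 13.5 CPM in posterior libraries B, G and R, against 148 and 71.4 CPM in anterior libraries B and G (log2 fold change -2.45 with an SE of 0.92, edgeR p 0.0201, adjusted p 0.726). LYN, a Src family kinase, had 0 counts in all posterior libraries and 36.0 and 3.27 CPM in anterior libraries B and G (edgeR p 0.0445, adjusted p 0.726). It passed the filter through the anterior libraries alone, so its direction was fixed by the filter.

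Proteases that cut Eph receptors or ephrins from the membrane, such as ADAM10 and the subunits of gamma-secretase, gave no gene with an unadjusted edgeR p under 0.05 among 11 tested. Of these, 6 had a log2 fold change above 0 and 5 below, with a median of 0.085. Without anterior B the median was 5.94, over 14 tested genes.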

How the data were processed

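Each library's deposited file holds raw counts for Ensembl genes, which the authors did not normalize. TopHat2 2.1.0, HTSeq 0.6.1 and build GRCz10 are named in the submitters' processing notes. The annotation release and use of strand are not given in the sources used here. Lines of unassigned reads were left out: 9.17% to 9.97% fell in no gene and 16.5% to 20.3% had more than 1 alignment. Near-identical copies, overlapping genes and antisense genes are therefore uncertain.

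Symbols came from a names table (26121 of 31953 identifiers). Counts were tested with the edgeR 4.0.16 quasi-likelihood test (R 4.3.3, legacy = FALSE, TMM factors, filterByExpr with minimum count 10 and minimum total 15, two-sided, Benjamini-Hochberg over all tested genes, threshold 0.05). SE is the log2 fold change divided by the square root of F. Members, lists and tests were chosen with earlier results of these data known. The genes given in full were the 10 with the highest mean CPM, those with an unadjusted p under 0.05, and non-overlapping tested genes with a mean of at least 10 CPM. Effector and protease genes under other observations were picked after their values were seen. In the Results such genes were named at an unadjusted p under 0.05, with 1 exception. Alternatives used RLE factors, other filters, DESeq2 1.42.0, limma-voom (limma 3.58.1), the replicate letter as a block and each library left out. Values of that list gene and of some marker genes are not reported here.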

Additional observations from a re-analysis of the deposited data

How the results depend on the processing

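The count of 0 Eph and ephrin genes with an adjusted p under 0.05 held in every setting run. Over all genes it was 252 with DESeq2 (157 higher and 95 lower in posterior), and 0 to 7 with each library left out (7 without anterior G, 1 without anterior B, where the lone anterior library is assumed to vary like the posterior ones). The legacy form of the edgeR fit, chosen after seeing the data, gave 0 calls and 565 genes with an unadjusted p under 0.05, against 768. Median log2 fold changes moved as follows. For EphA receptors it was -0.79 with no filter, -2.85 with limma-voom and -2.26 to -0.33 with a library left out. For EphB receptors it was 0.16 with a mean CPM of at least 5, 0.20 with limma-voom and -0.069 to 2.38 with a library left out. For ephrin-A ligands it was -0.60 with no filter and -0.94 to 0.47 with a library left out. For ephrin-B ligands it was -0.43 with a mean CPM of at least 5, -2.16 with limma-voom and -1.42 to -0.59 with a library left out. For effectors the range with a library left out was -0.18 to 0.40, and for proteases -0.39 to 5.94. Between 0 and 3 Eph and ephrin genes had an unadjusted p under 0.05 in these settings. The genes that passed the filter differed between settings, so these medians are not all over the same genes. Tested EphA receptors, for example, numbered 5 in the main fit, 8 with no filter and 7 without anterior B. Medians over a fixed set of genes were not computed, and the cause of these moves was not tested.

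The letters B and G occur in both groups, but no label says that they pair libraries. Deviations from the group means were close to uncorrelated (-0.0019 for B, 0.0063 for G). With 2 anterior libraries these deviations are equal and opposite, so the values are not separate checks and cannot decide whether letters pair libraries. With the replicate block over 4 libraries, 211 genes had an unadjusted p under 0.05 and none was an Eph or ephrin gene. The block gave medians of -2.29 for EphA receptors, 0.73 for EphB receptors and -1.46 for ephrin-B ligands. The same 4 libraries without it gave -2.26, 0.61 and -1.42, and -0.18 for effectors.

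Some small log2 fold changes turned sign. EFNA3 (-0.16) was 0.25 with the block and 0.079 on the same 4 libraries, and ran from -0.77 to 1.00 with a library left out. EFNA2 (ENSDARG00000079740, 0.19) was -0.11 with limma-voom and ran from -0.58 to 0.67. EPHB2 (ENSDARG00000021539) ran from -2.95 to 2.76, EFNA1 (ENSDARG00000018787) from -0.17 to 8.96 and EFNB3 from -1.04 to 0.25. With 3 and 2 libraries of 100 cells, a gene at 0 counts in 1 library and at over 10 CPM in another of its group sets how far these values can be read.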

Other observations

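Several genes of the effector and protease lists that were not past any threshold had posterior and anterior libraries that did not overlap. Of 65 tested effectors 6 lay wholly higher and 8 wholly lower in posterior, and of 11 tested proteases 1 higher and 0 lower. Of all tested genes 21.9% did not overlap in either direction, so the effector share is near that of all genes. Some of these genes are named here after their values were seen, most of them higher in posterior. VAV2, an exchange factor that Eph receptors use when they are taken up with their ligand, had 17.1, 39.4 and 48.5 CPM in posterior libraries B, G and R, against 59.9 and 109 CPM in anterior libraries B and G (edgeR adjusted p 0.726). ARHGEF7 (ENSDARG00000006299), an exchange factor for Rac and Cdc42, had 253, 148 and 114 CPM in posterior libraries B, G and R, against 48.3 and 97.1 CPM in anterior libraries B and G (edgeR adjusted p 0.726). The gamma-secretase subunit gene PSENEN had 141, 62.9 and 91.2 CPM in posterior libraries B, G and R, against 23.8 and 54.7 CPM in anterior libraries B and G (edgeR adjusted p 0.726). CDC42 (ENSDARG00000044573) was the steadiest of them, at 916, 852 and 923 CPM in posterior libraries B, G and R and 807 and 780 CPM in anterior libraries B and G, a log2 fold change of 0.18 with an SE of 0.28 (edgeR adjusted p 0.929).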
